A study of Mus musculus with 6 samples.

Results

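The collagens are the 44 protein-coding genes whose symbol has the form Col, a number, a and a number, out of 55416 genes counted in EpiLCs, the formative cells obtained from naïve mESCs. They were found by matching the Ensembl identifiers of the count table to GENCODE release M39, whose 44 collagen genes were all in the table, each under a single identifier. WT EpiLCs came from the parental line 46C, in which GFP is expressed from the neural gene Sox1, and Oct6 KO EpiLCs from a single clone of that line with a homozygous insertion of 1 base in Oct6 (Pou3f1) made with CRISPR/Cas9, so that clone and genotype cannot be told apart. Both groups were kept in N2B27 with 2i and LIF on gelatin and then differentiated for 48 h on fibronectin in N2B27 that held 1% KSR, bFGF at 12 ng/ml and ActivinA at 20 ng/ml, according to the sample labels, while the methods of the study state the same figures in µg/ml. Values below are given in the order of replicates 1, 2 and 3 of each group. Total RNA of 3 biological replicates per genotype was sequenced, and the comparison asks which transcripts differ at 48 h when Oct6 is lost.

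Collagens are the major structural proteins of the extracellular matrix. Their chains wind into triple helices, either of a single chain or of different ones, and these assemble into networks, fibrils or filaments. Type IV collagens form the sheet of the basement membrane together with laminins, nidogens and perlecan, and the epiblast rests on such a sheet. Fibrillar collagens give connective tissue its tensile strength and are typical of mesenchymal cells. Fibril-associated collagens sit on the fibrils, type VI collagens form beaded filaments close to cells, and transmembrane collagens are anchored in the plasma membrane. Chains are hydroxylated and folded in the endoplasmic reticulum, trimmed and crosslinked outside the cell, bound by integrins and discoidin receptors, and cleaved by metalloproteinases.

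Each library held between 10995505 and 14680930 counts. Oct6 itself was counted at 122 to 161 CPM in the WT libraries and 127 to 141 CPM in the KO libraries, and a gene count cannot tell the inserted base apart (CPM is the count scaled to the TMM-normalized library size). Of 6 pluripotent and formative markers, Pou5f1, Sox2, Utf1, Dnmt3b, Fgf5 and Otx2, all were present in every library, with summed levels of 2604 to 2886 CPM in WT EpiLCs, against 2550 to 2690 CPM in KO EpiLCs. Of these, 3 were called higher in KO EpiLCs, Otx2 (log2 fold change 0.92), Fgf5 (0.65) and Sox2 (0.42), beside 11.8% of all genes tested. The other 3 did not pass. With the replicate number as a block, Pou5f1 (-0.19, adjusted p = 0.0665, edgeR) and Dnmt3b (-0.19, adjusted p = 0.0550, edgeR) were called lower. The genes tested on chromosome 6 had a median log2 fold change of -0.40 and those on chromosome 16 one of 0.55, against 0.0014 for all 15746 genes tested, which touches Col1a2 and Col28a1 on chromosome 6 and the nearly silent Col8a1 on chromosome 16.

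The collagen transcripts of EpiLCs were dominated by a pair of basement membrane genes. Together the 44 genes took between 843 and 906 CPM in the WT libraries and between 847 and 1108 CPM in the KO libraries. Col18a1 alone held from 77.1% to 82.4% of this sum, and Col18a1 and Col4a1 together from 86.6% to 88.6%. All but Col19a1 had at least 1 count, 25 had counts high enough for the filter of edgeR and were tested, and 22 had a mean of at least 1 CPM over the 6 libraries. Of the 25 tested, 5 rose in KO EpiLCs (Col4a1, Col5a1, Col22a1, Col8a2 and Col6a5) and 4 fell (Col7a1, Col11a2, Col28a1 and Col17a1), at an adjusted p below 0.1 in the quasi-likelihood test of edgeR, where p was adjusted after Benjamini and Hochberg across all genes tested. The 9 genes are 36% of those tested, beside a background of 24.3% of all genes tested at the same threshold (11.8% higher and 12.5% lower). Their log2 fold changes reached an absolute value of 1 in 5 of them, a rule that 6.21% of all genes tested met. The median log2 fold change of the 25 genes was 0.04, beside 0.0014 for all genes tested. In 10 of the 25 genes, the 9 named and Col6a6, the libraries of the genotypes did not overlap in CPM, beside 33.7% of all genes tested. DESeq2's Wald test kept 6 of the 9 genes, and without KO replicate 3 there were 5 called, 3 higher and 2 lower. Col11a2 and Col28a1 had fewer than 10 counts in some KO libraries and passed the filter with the help of their higher WT counts. With at least 10 counts required in every library they were not tested. That setting called 7 collagen genes, 5 higher and 2 lower.

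**Figure D1:**
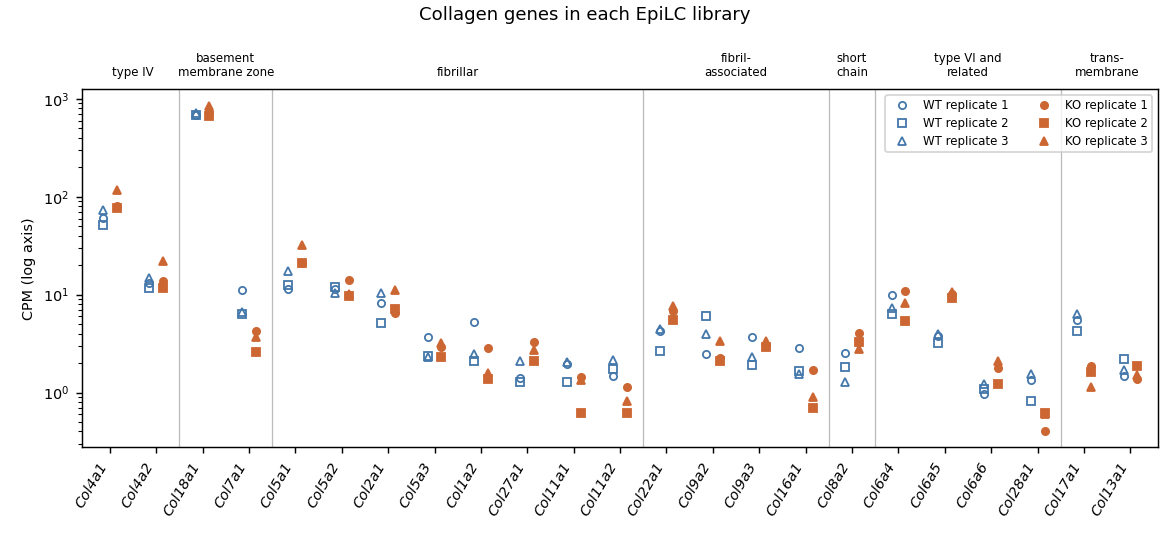
Level of each collagen gene with a mean of at least 1 CPM or an adjusted p below 0.1, in CPM on a log axis, with an open symbol for each WT library and a filled symbol for each KO library, sorted by type and then by mean level. Col18a1 lies between 668 and 854 CPM and Col4a1 between 51.8 and 116 CPM, while the highest value of any other gene is 32.2 CPM (Col5a1).

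**Figure D2:**
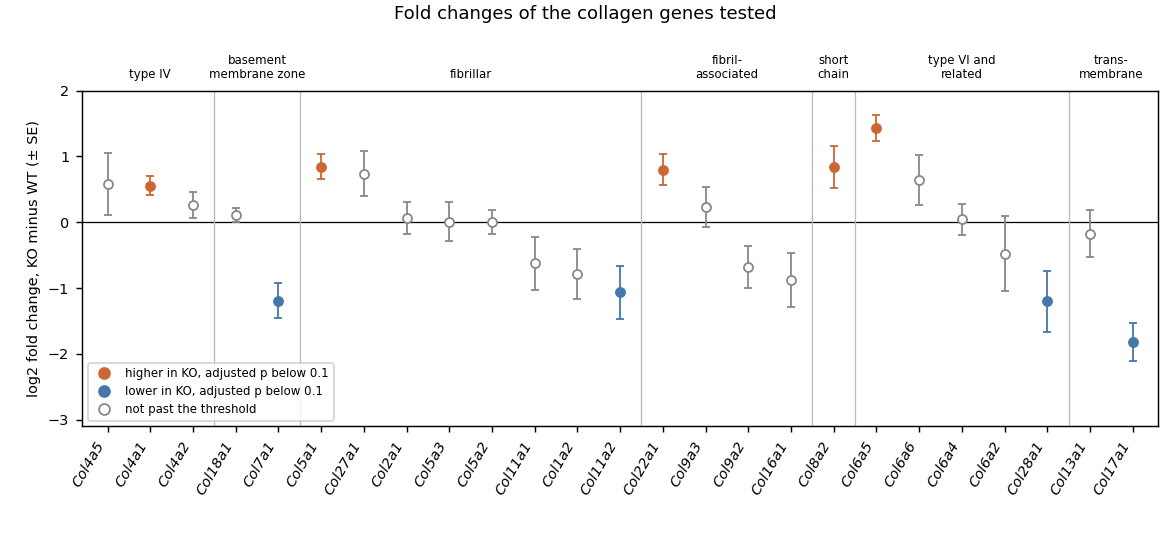
Log2 fold change between KO and WT EpiLCs with its standard error for the 25 collagen genes tested, by type, where filled symbols mark an adjusted p below 0.1. The values run from -1.82 (Col17a1) to 1.43 (Col6a5), and called genes of both directions occur among the fibrillar and the type VI and related genes.

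The bases just before the start of 4 of the called genes are shown, since these 4 kept their call without any single library and under DESeq2. Each line gives the 250 bases before the start of the canonical GENCODE transcript on GRCm39, 5′ to 3′ on the gene's strand. Capitals mark letters of the motifs searched on both strands, the POU octamer ATGCAAAT, the TATA box TATAAA and the CCAAT box CCAAT.
Col6a5, chr9:105837859-105838108, minus strand: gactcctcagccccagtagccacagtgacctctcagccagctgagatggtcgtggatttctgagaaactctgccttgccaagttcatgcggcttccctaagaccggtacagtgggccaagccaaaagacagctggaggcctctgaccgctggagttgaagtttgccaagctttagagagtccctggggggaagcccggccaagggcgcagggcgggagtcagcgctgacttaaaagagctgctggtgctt
Col5a1, chr2:27776147-27776396, plus strand: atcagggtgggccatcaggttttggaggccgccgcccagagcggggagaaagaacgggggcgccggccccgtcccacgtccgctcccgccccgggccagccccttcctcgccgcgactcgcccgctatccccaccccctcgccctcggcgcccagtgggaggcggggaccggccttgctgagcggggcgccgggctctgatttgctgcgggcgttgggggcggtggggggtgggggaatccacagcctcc
Col7a1, chr9:108782397-108782646, plus strand: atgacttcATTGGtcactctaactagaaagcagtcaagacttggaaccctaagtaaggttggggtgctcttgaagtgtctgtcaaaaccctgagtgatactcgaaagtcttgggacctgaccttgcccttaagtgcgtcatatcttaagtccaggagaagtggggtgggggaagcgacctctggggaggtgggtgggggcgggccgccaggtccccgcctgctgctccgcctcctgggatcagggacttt
Col17a1, chr19:47680534-47680783, minus strand: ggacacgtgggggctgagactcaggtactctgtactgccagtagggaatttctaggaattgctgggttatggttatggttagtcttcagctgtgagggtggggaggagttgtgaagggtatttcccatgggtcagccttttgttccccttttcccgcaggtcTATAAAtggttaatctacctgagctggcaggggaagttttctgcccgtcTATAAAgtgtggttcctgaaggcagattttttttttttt
The window of Col17a1 held TATAAA at 88 and at 39 bases before the start, and that of Col7a1 held ATTGG, the reverse complement of the CCAAT box, at 242 bases. Neither Col6a5 nor Col5a1 had a match, and the window of Col5a1 had 75.6% G and C, the highest among the collagen genes. Of the windows of all 21611 protein-coding genes examined, 1.5% held the octamer, 11.9% TATAAA and 36.5% CCAAT. Among the 44 collagen windows, 2 held the octamer (Col25a1 and Col3a1), 7 TATAAA and 15 CCAAT.

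Among the type IV genes, Col4a1 rose in KO EpiLCs, and its divergent neighbour Col4a2, which encodes the chain that joins it in the classical type IV trimer, did not pass the test. Col4a1 (ENSMUSG00000031502.12, at 11248423 to 11362826 of chromosome 8 in GRCm39) was read at 60.2, 51.8 and 74.2 CPM (WT) and at 80.5, 77.4 and 116 CPM (KO). The genotypes did not overlap, and replicate 3 was the highest of its group in both genotypes. WT EpiLCs averaged 62.1 ± 11.3 CPM (SD, n = 3) and KO EpiLCs 91.3 ± 21.5 CPM, which gave a log2 fold change of 0.55 (SE 0.15, adjusted p = 0.0113, edgeR). This value rested in part on KO replicate 3, without which it was 0.34 with an adjusted p of 0.116 in the same edgeR test. In bulk RNA, a change in the number of cells that make a transcript and a change in the transcript per cell cannot be told apart. Col4a2 (ENSMUSG00000031503.14, 11362471 to 11499287 on the plus strand) stood at 13.1, 11.8 and 14.9 CPM in the WT libraries, against 13.9, 11.8 and 22.1 CPM in their KO counterparts. Only KO replicate 3 stood above the WT range of Col4a2, and the log2 fold change was 0.26 (SE 0.20, adjusted p = 0.409, edgeR). The genes lie head to head and overlap at their starts, where 311 exonic bases belong to both on opposite strands. Col4a5 on the X chromosome, a chain of other type IV trimers, had 6 to 12 counts per WT library and 10 to 14 per KO library and did not pass (log2 fold change 0.58, SE 0.47, adjusted p = 0.448, edgeR). Its neighbour Col4a6 had 1 to 5 counts per library, Col4a4 at most 3 and Col4a3 a single count over the 6 libraries, all too low to test.

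The difference between Col4a1 and Col4a2 was examined as a ratio, which depends on neither normalization nor filter. The ratio of Col4a1 to Col4a2 counts was 4.59, 4.40 and 4.99 in WT EpiLCs, and it was 5.78, 6.56 and 5.25 in KO EpiLCs. All KO ratios were above all WT ratios, with means of 4.66 ± 0.298 (SD, n = 3) and 5.86 ± 0.656 and a two-sided exact permutation p of 0.1, the smallest that 3 against 3 libraries allow. Of 3 such ratios examined, that of Col5a1 to Col5a2 gave an exact permutation p of 0.2, that of Col6a5 to Col6a4 one of 0.1, and the adjusted values over the 3 were 0.15, 0.2 and 0.15. In each ratio the upper gene had been called higher in these same libraries and the lower one had not passed. The direction was thus largely set by the choice of pairs, and the ratios are no separate support.

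**Figure D3:**
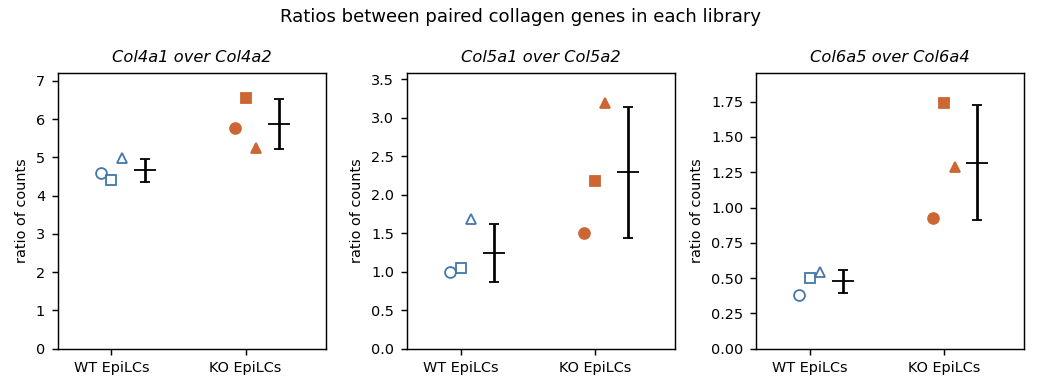
Ratio of counts between neighbouring or partner collagen genes in each library, with the mean and SD of each group as bars beside the points. For Col4a1 over Col4a2 and Col6a5 over Col6a4 the 3 KO libraries lie above the 3 WT libraries, and for Col5a1 over Col5a2 KO replicate 1 at 1.51 lies below WT replicate 3 at 1.68.

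Of the other genes of the basement membrane zone, Col18a1 did not pass the test and Col7a1 fell. Col18a1 (ENSMUSG00000001435.16, chromosome 10, 76888012 to 77002390) encodes a heparan sulfate proteoglycan of basement membranes and the source of endostatin. It was read at 680, 694 and 717 CPM (WT) and at 739, 668 and 854 CPM (KO). The groups overlapped, with a log2 fold change of 0.11 (SE 0.10, adjusted p = 0.505, edgeR). Per kb of exon its level was 98.7 ± 2.69 CPM (SD, n = 3) in WT EpiLCs, followed at a distance by Col4a1 with 8.32 ± 1.51, Col4a2 with 1.85 ± 0.217 and Col5a1 with 1.58 ± 0.362, the spreads of the last pair overlapping. Slc19a1 shares 896 of the 7063 exonic bases of Col18a1 on the opposite strand and was counted at 17.7 to 21.4 CPM. Col15a1, the closest relative of Col18a1, had 1 to 6 counts per WT library and 5 to 13 per KO library and was not tested.

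Col7a1 and Col17a1 encode parts of the complex that anchors epithelial cells to the tissue beneath, and both fell. Col7a1 (ENSMUSG00000025650.14, chromosome 9, 108782647 to 108813943), the collagen of anchoring fibrils, stood at 11.2, 6.30 and 6.63 CPM in the WT libraries, against 4.29, 2.62 and 3.69 CPM in their KO counterparts. All KO libraries lay below all WT libraries, with means of 8.04 ± 2.74 CPM (SD, n = 3) and 3.53 ± 0.846 CPM, so that the log2 fold change was -1.19 (SE 0.26, adjusted p = 0.0030, edgeR). Col17a1 (ENSMUSG00000025064.16, chromosome 19, 47634783 to 47680533) encodes the transmembrane collagen of hemidesmosomes. It was read at 5.52, 4.29 and 6.36 CPM (WT) and at 1.86, 1.62 and 1.13 CPM (KO). Again no library of a genotype reached the range of the other. The WT mean of 5.39 ± 1.04 CPM (SD, n = 3) was 3.51 times the KO mean of 1.54 ± 0.375 CPM, so that the log2 fold change was -1.82 (SE 0.29, adjusted p = 1.81e-04, edgeR). Among the collagen genes tested this was the largest change in either direction. Leaving out each library in turn gave -1.98 to -1.63 for Col17a1 and -1.35 to -0.88 for Col7a1. The other transmembrane collagen tested, Col13a1, had 1.49 to 2.19 CPM in WT EpiLCs, against 1.38 to 1.85 CPM in KO EpiLCs (log2 fold change -0.17, SE 0.35, adjusted p = 0.796, edgeR).

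Of the 11 fibrillar collagen genes 8 were tested, of which Col5a1 rose and Col11a2 fell. Those called were 25% of the fibrillar genes tested, near the 24.3% of all genes tested. Col5a1 (ENSMUSG00000026837.17, chromosome 2, 27776397 to 27929526), a chain of type V collagen, which starts and limits the growth of fibrils, stood at 11.4, 12.6 and 17.4 CPM in the WT libraries, against 21.1, 21.3 and 32.2 CPM in their KO counterparts. The lowest KO library was above the highest WT library. Means of 13.8 ± 3.16 CPM (SD, n = 3) and 24.9 ± 6.34 CPM gave a log2 fold change of 0.85 (SE 0.18, adjusted p = 0.0029, edgeR), and omitting single libraries gave 0.62 to 1.05. The other chains of type V collagen did not pass. Col5a2, the usual partner of Col5a1, was read at 11.4, 12.0 and 10.3 CPM (WT) and at 14.0, 9.80 and 10.1 CPM (KO), and the log2 fold change was 0.0043 (SE 0.18, adjusted p = 0.992, edgeR). Col5a3 had 2.30 to 3.73 CPM in WT EpiLCs, against 2.31 to 3.23 CPM in KO EpiLCs (log2 fold change 0.0083, SE 0.30, adjusted p = 0.991, edgeR).

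Col11a2 (ENSMUSG00000024330.18, chromosome 17, 34258108 to 34285664), a chain of the cartilage type XI collagen, was counted 19 to 32 times per WT library and 8 to 14 times per KO library. In CPM this was 1.49, 1.73 and 2.16 against 1.13, 0.617 and 0.827, with no overlap and a log2 fold change of -1.07 (SE 0.40, adjusted p = 0.0702, edgeR). The call did not hold under DESeq2 (adjusted p = 0.187), without the filter on low counts (0.104, edgeR) or without WT replicate 2 or 3 or KO replicate 2 or 3, where edgeR's adjusted p ran from 0.129 to 0.234 and the log2 fold change from -1.09 to -0.88. Col11a1 moved with it in sign but did not pass, with 1.94, 1.28 and 2.03 CPM (WT) and 1.46, 0.617 and 1.35 CPM (KO), a log2 fold change of -0.63 (SE 0.40, adjusted p = 0.323, edgeR). Col2a1, the main cartilage collagen, showed 8.21, 5.11 and 10.4 CPM without and 6.56, 7.17 and 11.3 CPM with the insertion, so that the groups overlapped (log2 fold change 0.06, SE 0.25, adjusted p = 0.902, edgeR).

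The genes of type I collagen, the typical fibril of fibroblasts, were low. Col1a1 had 0 to 9 counts per library and was not tested, and Col3a1, which forms fibrils with it, had 2 to 9. Per kb of exon, Col1a2 on chromosome 6 averaged 0.261 CPM in WT EpiLCs and Col1a1 0.0587 CPM. Col1a2 was found at 5.30, 2.10 and 2.50 CPM (WT) and 2.84, 1.39 and 1.58 CPM (KO), but 1308 of its 12650 exonic bases are shared with an antisense lncRNA (Gm66266). KO replicate 1 lay above WT replicates 2 and 3, and the log2 fold change of -0.78 (SE 0.38) did not pass (adjusted p = 0.172, edgeR). With the replicate number as a block it did (log2 fold change -0.74, adjusted p = 0.0651, edgeR), as it did without WT replicate 2 (-1.01) or KO replicate 1 (-1.16), whereas without WT replicate 1 the value was -0.27 (adjusted p = 0.719, edgeR). Relative to the median of chromosome 6, the log2 fold change of Col1a2 was -0.38. Col27a1 stood at 1.42, 1.28 and 2.10 CPM in the WT libraries, against 3.32, 2.08 and 2.71 CPM in their KO counterparts, higher in each pair of replicates with the same number (log2 fold change 0.74, SE 0.34, adjusted p = 0.147, edgeR). It passed with the replicate block (adjusted p = 0.0966, edgeR) and without WT replicate 3 (log2 fold change 0.99).

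Of 9 fibril-associated genes 4 were tested and Col22a1 rose, so that 25% of those tested were called, near the 24.3% of all genes tested. Col22a1 (ENSMUSG00000079022.11, chromosome 15, 71667644 to 71906095), known from junctions of muscle and tendon, was read at 4.25, 2.65 and 4.46 CPM (WT) and at 6.89, 5.55 and 7.60 CPM (KO), without overlap. Means of 3.79 ± 0.995 CPM (SD, n = 3) and 6.68 ± 1.04 CPM corresponded to a log2 fold change of 0.80 (SE 0.24, adjusted p = 0.0240, edgeR). It fell just short of the threshold without WT replicate 2 (0.61, adjusted p = 0.113, edgeR) or KO replicate 3 (0.70, adjusted p = 0.108, edgeR). Col16a1 was lower in each pair of replicates, with 2.84, 1.64 and 1.56 CPM (WT) and 1.70, 0.694 and 0.903 CPM (KO), but the groups overlapped and it did not pass (log2 fold change -0.88, SE 0.41, adjusted p = 0.163, edgeR) unless the replicate block was used (adjusted p = 0.0883, edgeR) or KO replicate 1 left out (-1.33). Without WT replicate 1 the log2 fold change of Col16a1 was -0.54 (adjusted p = 0.496, edgeR). The chains of type IX collagen that were tested went in different directions without passing. Col9a2 stood at 2.46, 6.11 and 3.99 CPM in the WT libraries, against 2.27, 2.08 and 3.38 CPM in their KO counterparts (log2 fold change -0.68, SE 0.33, adjusted p = 0.169, edgeR), and it passed without WT replicate 1 (-0.95) but was at -0.33 without WT replicate 2 (adjusted p = 0.599, edgeR). Col9a3 had 3.66, 1.92 and 2.30 CPM and 3.0, 2.93 and 3.38 CPM (log2 fold change 0.23, SE 0.30, adjusted p = 0.659, edgeR), and 535 of its 4525 exonic bases are shared with Tcfl5 on the opposite strand. Tcfl5 was counted at 78.9 to 102 CPM and was higher in KO EpiLCs.

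Col8a2 was the tested gene among the short-chain collagens, of which type VIII builds the hexagonal sheet beneath endothelia such as that of the cornea. Col8a2 (ENSMUSG00000056174.9, chromosome 4, 126180559 to 126208123) was read at 2.54, 1.83 and 1.29 CPM (WT) and at 4.05, 3.32 and 2.78 CPM (KO), from 19 to 50 counts per library. The genotypes did not overlap, and the log2 fold change was 0.85 (SE 0.32, adjusted p = 0.0737, edgeR). DESeq2 did not call it (adjusted p = 0.149), nor did edgeR without WT replicate 2 or 3 or without KO replicate 1 or 2, where the log2 fold change was between 0.62 and 0.86 and the adjusted p between 0.133 and 0.247. Its relatives were almost absent, Col8a1 with 1 count and Col10a1 with 3 counts in all.

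Among the type VI and related collagens, Col6a5 rose while its tandem neighbours did not pass. Col6a4, Col6a5 and Col6a6 lie in a row on chromosome 9 with gaps of 28794 and 27708 bases and encode the long alternative chains of type VI collagen. Col6a5 (ENSMUSG00000091345.10, 105733270 to 105837858) stood at 3.81, 3.19 and 3.99 CPM in the WT libraries, against 10.1, 9.26 and 10.5 CPM in their KO counterparts. The separation between the genotypes was several times the spread within either of them, with means of 3.66 ± 0.417 CPM (SD, n = 3) and 9.97 ± 0.651 CPM. The KO mean was 2.72 times the WT mean, a log2 fold change of 1.43 (SE 0.20, adjusted p = 5.39e-05, edgeR) for which omission of single libraries gave 1.35 to 1.5. Col6a4 was read at 9.93, 6.39 and 7.31 CPM (WT) and at 10.9, 5.32 and 8.20 CPM (KO), with overlap (log2 fold change 0.04, SE 0.24, adjusted p = 0.932, edgeR). Col6a6 stood at 0.970, 1.10 and 1.22 CPM in the WT libraries, against 1.78, 1.23 and 2.11 CPM in their KO counterparts, from 12 to 28 counts per library (log2 fold change 0.64, SE 0.38, adjusted p = 0.285, edgeR). The ratio of Col6a5 to Col6a4 counts was 0.383, 0.500 and 0.546 in WT EpiLCs, and it was 0.926, 1.74 and 1.28 in KO EpiLCs.

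The classical chains of type VI collagen were low. Col6a1 and Col6a3 had at most 11 counts in a library and were not tested, and Col6a2 had 8, 11 and 12 counts in WT EpiLCs and 6, 14 and 2 in KO EpiLCs (log2 fold change -0.47, SE 0.57, adjusted p = 0.636, edgeR). Col28a1 (ENSMUSG00000068794.8, chromosome 6, 7997102 to 8192617), whose protein shares the von Willebrand type A domain of type VI chains, was counted 18, 9 and 23 times in WT EpiLCs and 5, 8 and 8 times in KO EpiLCs, or 1.34, 0.821 and 1.56 CPM against 0.405, 0.617 and 0.602 CPM. It was lower in every KO library (log2 fold change -1.20, SE 0.46, adjusted p = 0.0805, edgeR). The call was lost with the median shift of chromosome 6 removed (-0.80, adjusted p = 0.279, edgeR), under DESeq2 (adjusted p = 0.239), without the filter on low counts (0.142, edgeR) and in 5 of the 6 fits that left out a library, those without WT replicate 1, WT replicate 3 or any KO replicate, where the log2 fold change was between -1.30 and -1.0.

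The 19 collagen genes that were not tested had at most 22 counts in a library. Col12a1, which decorates fibrils in tendon and skin, was the only one of them whose genotypes did not overlap, counted 0, 1 and 3 times in WT EpiLCs and 9, 12 and 8 times in KO EpiLCs. Col12a1 was singled out after its values were seen, and without the filter on low counts it was called (log2 fold change 2.77, adjusted p = 0.0156, edgeR). Col19a1 had 0 counts in all 6 libraries, which allows up to 0.0385 CPM over their 77894167 counts, a limit that covers counting error only.

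The genes that modify, process, bind and degrade collagens were examined as 5 lists of 71 genes in all. Of these 56 were tested, and 8 rose and 17 fell in KO EpiLCs, together 44.6% of those tested beside the background of 24.3%. The share called was 40% for folding and modification, 54.5% for processing and crosslinking and 40% for receptors. It was 55.6% for degradation and 36.4% for basement membrane partners. With at least 10 counts required in every library, 20 partner genes were called, 7 higher and 13 lower. Adamts2, Fkbp14, Mmp9, Timp2 and Tll1 had fewer in some library and were then not tested. In the list for folding and modification in the endoplasmic reticulum, 1 of 20 tested genes rose and 7 fell. Serpinh1 (HSP47), the chaperone dedicated to collagen, was read at 69.4, 64.8 and 73.0 CPM (WT) and at 53.6, 36.8 and 49.3 CPM (KO), a log2 fold change of -0.57 (SE 0.13, adjusted p = 0.0031, edgeR). The others that fell were the prolyl hydroxylase subunit P4ha2 (-0.60), the lysyl hydroxylase Plod1 (-0.76), P3h4, which works with lysyl hydroxylase (-0.70), the prolyl isomerases Fkbp10 (-0.64) and Fkbp14 (-1.56), and the collagen export factor Mia3 (-0.35), whose call was lost without WT replicate 3 or KO replicate 1 or 2. Fkbp14 lies on chromosome 6. Plod2, the lysyl hydroxylase of the telopeptides, rose from 102, 104 and 125 CPM to 157, 141 and 161 CPM (log2 fold change 0.47, SE 0.10, adjusted p = 0.0032, edgeR), so that Plod1 and Plod2 moved in opposite directions. Neither P4hb, the shared subunit of the prolyl hydroxylases, nor Ppib, a prolyl isomerase, passed, with P4hb at 607 to 710 CPM (log2 fold change -0.02) and Ppib at 243 to 303 CPM (0.04). The median of the list was -0.06.

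Of 11 tested genes for processing and crosslinking, 3 rose and 3 fell, with a median of -0.21. Those that fell act on the C-terminal propeptide. Pcolce, the enhancer of the C-proteinase, stood at 33.4, 26.1 and 28.7 CPM in the WT libraries, against 11.1, 14.1 and 16.1 CPM in their KO counterparts (log2 fold change -1.09, SE 0.15, adjusted p = 5.62e-05, edgeR), and the C-proteinases Bmp1 and Tll1 had log2 fold changes of -0.79 and -1.64. Pcolce2, a second gene named as a C-proteinase enhancer, went the other way. Its level rose from 30.7, 37.8 and 31.5 CPM to 46.1, 52.1 and 49.4 CPM (log2 fold change 0.56, SE 0.12, adjusted p = 0.0019, edgeR). The N-proteinases Adamts2 and Adamts14, which remove the other propeptide, rose by 1.26 and 1.12, Adamts2 losing its call without WT replicate 2 (1.02) or KO replicate 3 (1.14) and Adamts14 without KO replicate 3 (0.79). Adamts2 had 5 to 29 counts per library. Adamts3, of the same kind, had the opposite sign and did not pass (log2 fold change -0.21, adjusted p = 0.805, edgeR). Pxdn, which crosslinks type IV collagen, did not pass (adjusted p = 1.0, edgeR).

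Of 5 tested receptors, Ddr1 fell and Mrc2 rose, and the median was -0.10. Ddr1, the discoidin receptor of epithelia that binds type IV and fibrillar collagens, was read at 48.7, 42.2 and 39.7 CPM (WT) and at 23.6, 20.7 and 26.4 CPM (KO), a log2 fold change of -0.89 (SE 0.13, adjusted p = 7.34e-05, edgeR). Itgb1, the integrin chain shared by all collagen-binding integrins, was counted at 410 to 472 CPM and did not pass (log2 fold change -0.10, SE 0.09, adjusted p = 0.487, edgeR), while Itga2 had counts in only 2 libraries. The endocytic collagen receptor Mrc2 rose by 0.43 on the log2 scale, but lost its call without WT replicate 2 or 3 or any KO replicate, where the value lay between 0.33 and 0.46. The call of Mrc2 was also lost under DESeq2 (adjusted p = 0.149), with library totals alone and without the filter on low counts. In the degradation list 2 of 9 tested genes rose and 3 fell, with a median of -0.49. The type IV collagenases went in opposite directions, Mmp9 from 5.90, 4.20 and 2.57 CPM to 0.972, 0.694 and 1.58 CPM (log2 fold change -1.94, SE 0.38, adjusted p = 0.0011, edgeR) and Mmp2 from 19.4, 18.0 and 21.9 CPM to 23.9, 23.6 and 28.4 CPM (0.35, SE 0.14, adjusted p = 0.0804, edgeR). Mmp14, the membrane-bound collagenase, fell by 0.49, without a call when WT replicate 2 or 3 or KO replicate 3 was left out. The inhibitor Timp2 fell by 2.26 and Timp3 rose by 0.45. Timp2 was low, with 21, 14 and 25 counts in WT EpiLCs and 3, 5 and 4 in KO EpiLCs. The calls of Mmp2 and Timp3 were lost under DESeq2 (adjusted p = 0.118 and 0.107) and with library totals alone, and when WT replicate 2, KO replicate 1 or KO replicate 3 was left out, that of Mmp2 also without WT replicate 1 and that of Timp3 also without WT replicate 3.

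**Figure D4:**
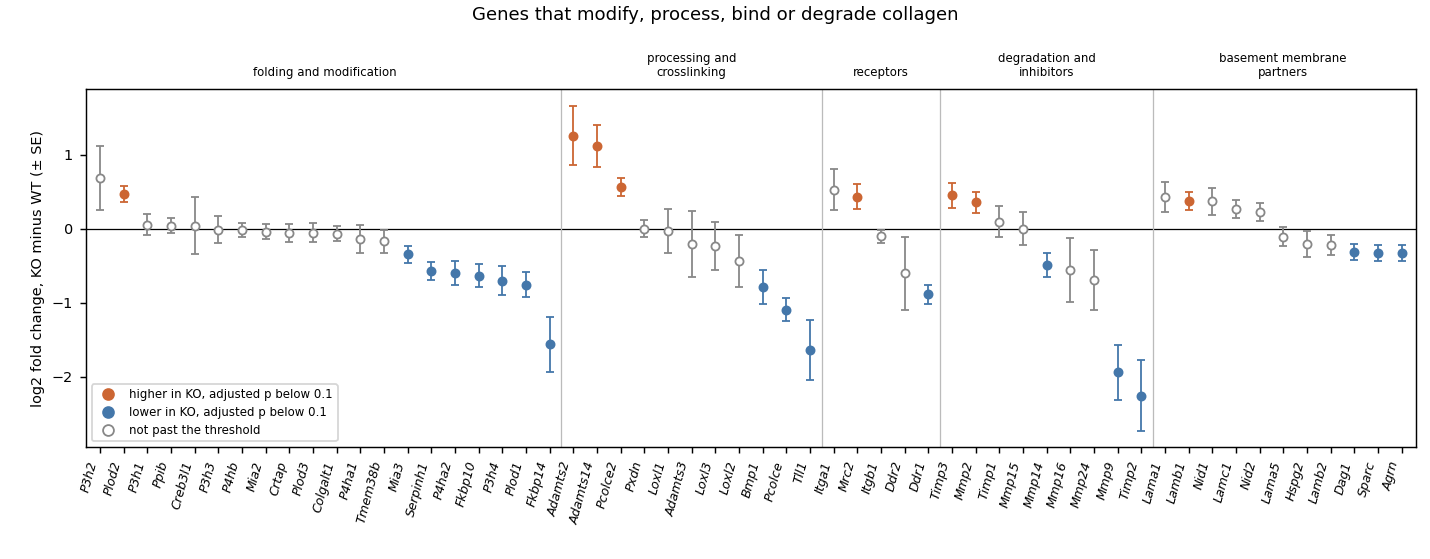
Log2 fold change between KO and WT EpiLCs with its standard error for the 56 tested genes of the 5 lists of collagen partners, where filled symbols mark an adjusted p below 0.1. The 17 genes that fell outnumber the 8 that rose, and the lowest values are those of Timp2 (-2.26), Mmp9 (-1.94) and Tll1 (-1.64).

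For the basement membrane partners of type IV collagen the median log2 fold change was -0.11. Of 11 tested genes, Lamb1 rose (log2 fold change 0.37, SE 0.12, adjusted p = 0.0387, edgeR) and Agrn, Sparc and Dag1 fell by 0.33, 0.33 and 0.32. The call of Lamb1 was lost without WT replicate 2, KO replicate 1 or KO replicate 3, where it lay between 0.25 and 0.35, the call of Agrn without WT replicate 1 or 3 or KO replicate 1 or 2, that of Sparc without WT replicate 1 or KO replicate 2 or 3, and that of Dag1 without WT replicate 2 or KO replicate 1 or 2. Lama1, which pairs with Lamb1 in the laminin of early embryos, stood at 23.5, 14.5 and 24.5 CPM in the WT libraries, against 29.2, 18.4 and 37.0 CPM in their KO counterparts, higher in each pair (log2 fold change 0.43, SE 0.21, adjusted p = 0.178, edgeR; adjusted p = 0.0110 with the replicate block). Lamc1, Nid2 and the integrin chain Itga1 likewise passed with the block, all 3 in the higher direction (adjusted p = 0.0278, 0.0735 and 0.0885, edgeR). With the block, 29 of the 56 partner genes and 12 of the 25 collagen genes were called, beside 30.3% of all genes tested.

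Of 12 markers of extraembryonic endoderm, a cell type rich in type IV collagen and laminin, 6 were tested and 3 rose, beside 11.8% of all genes tested called higher. These were Gata6, Pdgfra and Cubn, with log2 fold changes of 1.35, 0.94 and 1.92 and adjusted p of 0.0121, 0.0991 and 1.47e-04 (edgeR), while Sox17, Hnf4a and Dab2 did not pass. The 12 markers summed to 11 to 17.6 CPM in the WT libraries and to 38.7, 16.6 and 44.2 CPM in the KO libraries, so that KO replicate 2 lay within the WT range. Among the 6 markers not tested, Afp was lower in every KO library, with 10, 5 and 11 counts in WT EpiLCs and 2, 1 and 0 in KO EpiLCs. Foxa2 was higher in every KO library, with 5, 3 and 3 counts in WT EpiLCs and 9, 5 and 13 in KO EpiLCs. Afp, Foxa2 and Amn all stayed below 1 CPM. Ttr was at 0 in every library and Sox7 in 3 of 6, while Gata4 stayed below 1 CPM. Cubn was read at 7.16, 3.19 and 3.72 CPM (WT) and at 21.9, 9.41 and 22.5 CPM (KO). KO replicate 2 was the lowest KO library for Cubn, Col4a1, Col4a2 and Lamb1. It was also the lowest for Col18a1, Col7a1 and Col6a5. For Col5a1 the lowest was KO replicate 1, and for Col17a1 and Col8a2 it was KO replicate 3. The part of such cells in the value of Col4a1 was not tested. The 10 fibroblast markers, of which Prrx1 and S100a4 were at 0 in every library and Postn in 5, summed to 17.2 to 26.6 CPM in WT EpiLCs, against 15.3 to 21.5 CPM in KO EpiLCs, with Twist1 higher (0.78) and Thy1 lower (-1.22) among the 5 tested. Those called were 40% of the tested markers, beside 24.3% of all genes tested. With the replicate block, Dcn (-0.57, adjusted p = 0.0335, edgeR) and Acta2 (-0.58, adjusted p = 0.0723, edgeR) were also called lower. Of the 6 markers of primitive streak and mesoderm, Eomes was the single gene tested and rose by 0.87 on the log2 scale, the sums being 6.29 to 6.57 CPM and 9.03 to 12.3 CPM. The 6 trophoblast markers, which include Eomes, summed to 8.73 to 11.9 CPM and 12.0 to 16.8 CPM, Cdx2, Gata3, Elf5 and Hand1 being at or below 0.522 CPM in every library. Eomes, part of both sums, was read at 5.82, 5.38 and 5.07 CPM (WT) and at 10.3, 8.25 and 11.3 CPM (KO). Both rises were thus largely those of this shared gene. Tfap2c, also tested, did not pass (log2 fold change 0.05, adjusted p = 0.927, edgeR). Of the genes too low to test, Cdx2 was lower in every KO library and Tbx6 higher. Whether these cells had a part in the values of the fibrillar and other collagens was not tested.

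**Figure D5:**
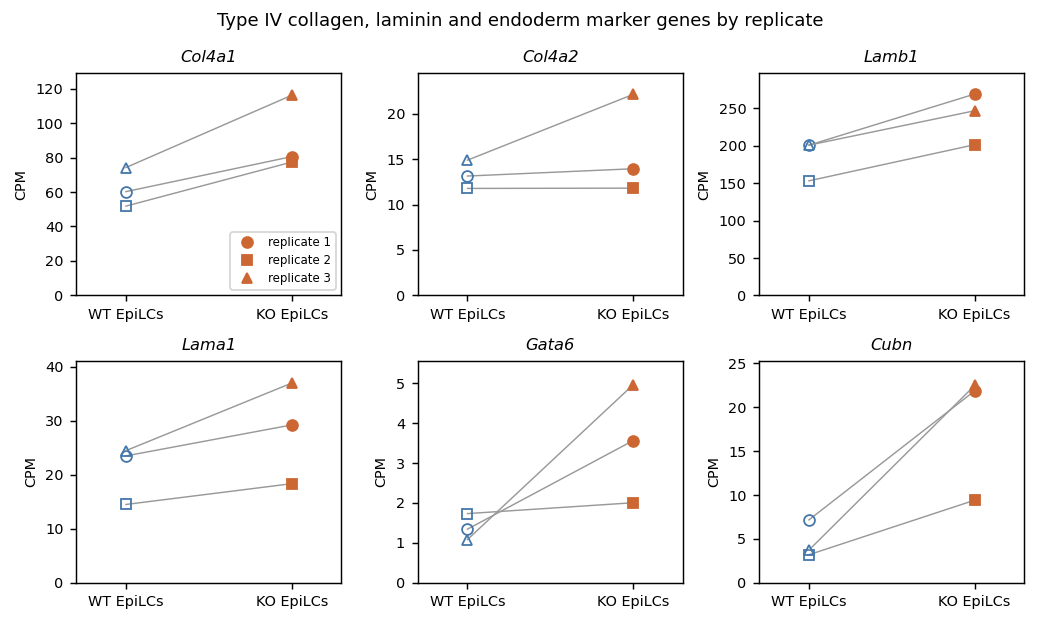
CPM of Col4a1, Col4a2, the laminin genes Lamb1 and Lama1 and the endoderm markers Gata6 and Cubn, with grey lines joining WT and KO libraries of the same replicate number. Col4a1 rises in all 3 pairs, from 60.2 to 80.5, from 51.8 to 77.4 and from 74.2 to 116 CPM. KO replicate 2 is the lowest KO library in all 6 panels. Among genes not shown it is the lowest for Col18a1 and Col7a1 but not for Col5a1 and Col17a1.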

How the data were processed

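RNA of 6 EpiLC libraries was analysed, 3 WT and 3 Oct6 KO, grouped by sample title. The authors checked reads with FastQC, trimmed them with Fastp and aligned them to the GRCm39 assembly using STAR (two-pass), and deposited raw counts per Ensembl gene without normalization. Library preparation was stranded, with ribosomal RNA depleted. Versions, annotation release, use of the strand in counting and treatment of reads with several matches are not given in the sources used here, so that reads of genes overlapping on opposite strands may not have been separated. Of 55416 identifiers, 54749 matched GENCODE M39, which gave symbols, positions and exon lengths, taken as the union of all exons.

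Counts were tested in R 4.3.3 with edgeR 4.0.16: TMM normalization, filterByExpr with a minimum count of 10 (15746 genes left), and the quasi-likelihood test for genotype without further terms, p being adjusted after Benjamini and Hochberg, at a threshold of 0.1. SE were derived from the F statistic. CPM used TMM-normalized totals of the genes tested. The biological coefficient of variation was 11.7%, and limits set by 0 counts used 3 counts. The test was checked on simulated data. DESeq2 1.42.0, other scalings, filters, thresholds, the chromosome medians as an offset, a replicate block and omission of each library were alternatives, and the count ratios with omission of each library were added after seeing the data.

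The study describes the replicates as paired. Over 14793 genes, which are not independent, deviations from the group mean of libraries with the same number correlated at 0.102 to 0.252, and those with different numbers at -0.195 to -0.0233, so the blocked value is given where it changes a call.

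The collagen genes, the lists of partners and the marker lists (pluripotent and formative cells, extraembryonic endoderm, fibroblasts, primitive streak and mesoderm, trophoblast) were chosen with earlier results of these data known. Values per library are given for collagen genes with an adjusted p below 0.1 or a mean of at least 1 CPM, and partner genes are named where they passed, and a few that did not pass were named after their values were seen. Upstream sequence was read from the GRCm39 genome, and motif matches are exact.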

Additional observations from a re-analysis of the deposited data

How the results depend on the processing

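The 9 called collagen genes became 5 when the log2 fold change also had to reach 1 in size, as the 25 partner genes became 7 and the 3833 called among all genes became 978. When single libraries were omitted, the counts were 5 to 9 for collagen genes, the 5 being those without KO replicate 3, 18 to 24 for partner genes and 3058 to 3790 for all genes. The replicate block gave 12, 29 and 4764, among them all 9, 25 and 3833 called without it. Requiring at least 10 counts in every library gave 7, 20 and 3493. RLE size factors and library totals alone called the same 9 collagen genes. Signs changed only for collagen genes that did not pass in any of these fits. Col5a2 was at -0.020 with library totals alone, -0.0031 without the filter on low counts, -0.0057 with the replicate block and -0.030 with the chromosome shift removed, and Col5a3 at -0.016 with library totals alone and -0.014 with the chromosome shift removed. When single libraries were omitted, Col5a2 ran from -0.18 to 0.097, Col5a3 from -0.13 to 0.27, Col4a2 from -0.047 to 0.44, Col6a4 from -0.22 to 0.27 and Col2a1 from -0.22 to 0.31. The cause of these moves was not tested. The 3 libraries of 1 KO clone limit every comparison to that clone.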

Other observations

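Col4a1 and Col4a2, Col4a3 and Col4a4, and Col4a5 and Col4a6 each lie head to head, and their canonical transcripts start 317, 103 and 1282 bases apart. Col3a1 and Col5a2 lie tail to tail with 16713 bases between them on chromosome 1, the former with 2 to 9 counts per library and the latter with 127 to 173. The 250 bases before the start of the collagen genes had a median of 56.4% G and C, beside 53.2% over 21611 protein-coding genes, and ran from 30.0% (Col19a1, with no counts) to 75.6% (Col5a1).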
